A study of Mus musculus with 12 samples.

Results

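The RNA bound to EGFP-tagged ribosomes of the mouse choroid plexus at 9 p.m. was set against the RNA left unbound in the same preparations, over all genes of the deposited table. These were the 3 TRAP and the 3 supernatant libraries collected at 9 p.m., 6 of the 12 libraries of the study, and they were chosen by their labels alone. The other 6 libraries are the same fractions collected at 9 a.m. TRAP (translating ribosome affinity purification) pulls down ribosomes through a tagged subunit, and here an antibody to EGFP brought down ribosomes with EGFP:L10a, together with their RNA. All 4 groups came from choroid plexus (ChP) of FoxJ1:cre x bacTRAP (EGFP:L10a) mice at 60 days of age per the labels (8 weeks per the methods, which give male mice and tissue of the lateral ventricle). The TRAP 9 p.m. and supernatant 9 p.m. groups were taken in the dark phase. Each sample was a pool of 3 mice per the methods, while the labels give 1 animal number to each TRAP library and the supernatant library that matches it. The Foxj1 promoter directs the tag to cells that have made motile cilia, so ribosomes of stromal, vascular and immune cells should carry no tag. The supernatant should then hold their RNA together with whatever epithelial RNA was not captured. Libraries without the Cre were not analysed here, so tag in other cells and carry-over of unbound RNA were not tested.

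The ChP is a sheet of ciliated epithelium on a vascular, fibroblast-bearing core. The epithelium secretes cerebrospinal fluid and proteins such as transthyretin, and is rich in mitochondria and ion pumps. An mRNA in translation carries ribosomes and is brought down by the tag, whereas RNA that stays in the nucleus, structural RNA without an open reading frame, and RNA of untagged cells have no tagged ribosome to follow. In such bulk samples, fewer cells of a type and less RNA per cell cannot be told apart.

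The values are the authors' FPKM, a read count scaled to transcript length and to the mapped reads of each library, for 24327 gene names. Of these, 10465 were listed at 0 in all 6 libraries of 9 p.m. and 10924 passed a mean FPKM above 1 and were tested. Read depth is unknown, because FPKM keeps no count of reads. The number of genes above 1 FPKM was 7711, 10186 and 8392 in TRAP and 8789, 7825 and 10540 in the supernatant (exact two-sided permutation test, p = 0.7, with 0.1 the smallest p that 3 against 3 allow). MicroRNA gene rows held 63.8%, 45.4% and 69.6% of the summed FPKM in TRAP and 31.9%, 71.3% and 40.8% in the supernatant (exact p = 0.5). Zeros also hit abundant genes. Of 3042 genes with a median above 20 FPKM, 29, 5 and 32 were listed at 0 in TRAP and 15, 56 and 1 in the supernatant. Library values below are given in the order of libraries 1, 2 and 3, and fold changes are TRAP over supernatant on the log2(FPKM + 1) scale, which understates the change of weakly expressed genes.

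The driver and the tag were looked at first. Foxj1, the master regulator of motile ciliogenesis whose promoter drives the Cre, had 88.2, 72.7 and 76.3 FPKM in the TRAP libraries, against 50.6, 23.4 and 55.8 FPKM in the supernatant libraries. All TRAP values lay above all supernatant values, with a log2 fold change of 0.94 (SE 0.42) that did not pass the test (adjusted p = 0.818, limma). Rpl10a, the gene of the tagged ribosomal protein, had 11.6, 3.09 and 0.846 FPKM in the TRAP libraries, against 0, 0.209 and 0 FPKM in the supernatant libraries. It was thus weak in both fractions, though again higher in every TRAP library, and reads of the EGFP:L10a transgene and of the endogenous gene cannot be told apart. With a supernatant mean of 0.0696 FPKM, Rpl10a passed the filter through TRAP alone.

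Of the 10924 genes, limma called 0 higher in TRAP (0.0% of those tested) and 3 lower (0.0275%), with calls made at an adjusted p (Benjamini-Hochberg) below 0.05 for genes that differed by over 0.3 on the log2 scale. Before adjustment, p was under 0.05 for 344 genes with higher and 276 with lower TRAP values. The called genes were Malat1, Cdr1 and Mgp. A looser description counts genes whose groups do not overlap: in 535 genes (4.9%) all 3 TRAP libraries lay above all 3 supernatant libraries, and in 765 genes (7.0%) all lay below. After rescaling coding genes to equal sums these counts were 340 higher and 1022 lower, and after rescaling all genes 134 higher and 1234 lower, so the split depends on the scaling. The 2 shares are the background for the counts of list members below, and such counts carry no test. The median log2 fold change over all tested genes was -0.07, and list medians are given as the difference from it.

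Malat1 had the lowest p of all genes, and it was the single noncoding RNA that passed the test. Malat1, a long noncoding RNA held in nuclear speckles, lies on chromosome 19 of mm10 from 5795690 to 5802672 (minus strand) and had 219, 174 and 242 FPKM in the TRAP libraries, against 4084, 4314 and 2510 FPKM in the supernatant libraries. The highest TRAP library was thus far under the lowest supernatant library, and the log2 fold change was -4.07 (SE 0.30), with an adjusted p of 6.12e-04 (limma). Malat1 alone made up most of the lincRNA signal of the supernatant. Over all lincRNA genes the summed FPKM was 791, 826 and 615 in TRAP and 4680, 4716 and 3349 in the supernatant (exact p = 0.1), and without Malat1 it was 572, 652 and 373 in TRAP and 595, 402 and 839 in the supernatant (exact p = 0.6). Malat1 lost its call without the filter on low values (adjusted p = 0.0857) and without the intensity trend (adjusted p = 0.243, limma).

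Malat1 ends without a poly(A) tail: RNase P cuts the transcript before a tRNA-like element, and the new end is guarded by a triple helix of U-rich and A-rich tracts. The stretch that holds these tracts is shown because the end made in this way sets Malat1 apart from the mRNAs bound to ribosomes. It lies at chr19:5795974-5796072 on the minus strand (mm10), 284 bases before the annotated end, with the U-rich tracts 1 and 2 and the A-rich tract in capitals.
Malat1 3′ region: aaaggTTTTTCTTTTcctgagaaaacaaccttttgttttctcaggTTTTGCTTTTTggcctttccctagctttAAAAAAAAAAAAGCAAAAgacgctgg
A search for TTTTCTTT, TTTTGCTT and AAAAGCAA in this order within 99 bases, on both strands of 6051 annotated lincRNA genes, found 1 gene (0.0165%), Malat1 itself. These strings are those of the stretch shown, so Malat1 had to be found. An end of the same kind with other bases would be missed, so the search does not show that such an end is particular to Malat1.

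Neat1, the scaffold RNA of paraspeckles and the neighbour of Malat1 on chromosome 19, had 1.02, 26.8 and 32.2 FPKM in the TRAP libraries, against 94.1, 67.9 and 45.8 FPKM in the supernatant libraries. The groups did not overlap, with a log2 fold change of -2.45 (SE 0.93) that did not pass the test (adjusted p = 0.818, limma). Of 11 listed nuclear long noncoding RNAs, 5 could be tested, and 2 of these (40.0%, against 7.0% of all genes) lay lower in every TRAP library. The median of the 5 was -1.28 from that of all genes (-0.69 without TRAP library 2, -2.45 without TRAP library 3 and -2.54 without supernatant library 3). Peg13, an imprinted noncoding RNA, was the member that ran the other way, with 19.4, 23 and 27.3 FPKM in TRAP and 7.37, 18 and 24.9 FPKM in the supernatant. Its groups overlapped.

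The RNA of RNase P itself also had lower values in TRAP. Rpph1, the catalytic RNA of the enzyme that trims the 5′ ends of tRNAs, had 244, 439.8 and 69.96 FPKM in the TRAP libraries, against 1511, 1864 and 5235 FPKM in the supernatant libraries, a log2 fold change of -3.64 (SE 0.64) with an adjusted p of 0.231 (limma). Rprl3, a gene that resembles it, had 2.9, 18.4 and 0 FPKM in the TRAP libraries, against 270.4, 197 and 277 FPKM in the supernatant libraries, and a log2 fold change of -5.86 (SE 0.87) with an adjusted p of 0.118 (limma). Neither overlapped between the groups, and both passed the test only under other settings. Rprl3 passed after rescaling all genes to equal sums (adjusted p = 0.0216), under quantile normalization (0.0227), without TRAP library 2 (0.00429) and without TRAP library 3 (0.0262, limma), and Rpph1 passed under quantile normalization (0.0472, limma). The 2 genes begin with much the same bases, which is why their starts are shown, and the bases after these were not aligned. The first 120 bases lie at chr14:50807648-50807767 for Rpph1 and chr8:3803239-3803358 for Rprl3, both on the minus strand of mm10, and the capitals mark the bases at which they differ.
Rpph1: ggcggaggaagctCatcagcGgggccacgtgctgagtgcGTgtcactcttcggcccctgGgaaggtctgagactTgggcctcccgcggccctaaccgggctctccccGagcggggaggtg
Rprl3: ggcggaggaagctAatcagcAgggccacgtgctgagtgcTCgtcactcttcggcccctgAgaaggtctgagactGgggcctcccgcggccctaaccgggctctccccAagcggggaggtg
Over this stretch 7 bases differ and 94.2% are identical. None of the 241 windows of 50 bases in Rprl3 (290 nt) occurs without a mismatch in Rpph1 (319 nt), but reads of 50 bases with a mismatch can fit both, so how the deposited values share reads between them is uncertain. The 6 tested small structured RNAs, of 13 listed, had a median of -1.94 from that of all genes (-3.06 without supernatant library 1 and -2.91 without supernatant library 2). Of the 6, 2 (33.3%, against 7.0% of all genes) lay lower in every TRAP library. Of these 6, 3 had a TRAP mean over 1 FPKM, so that the others passed the filter through the supernatant alone. Rmrp, the RNA of the related RNase MRP, had 293, 281 and 37.1 FPKM in TRAP and 225, 49.96 and 323 FPKM in the supernatant, with groups that overlapped.

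Cdr1 was the coding gene with the lowest p. It lies on chromosome X of mm10 from 61184005 to 61185558 (minus strand) and had 28.1, 13.7 and 15.1 FPKM in the TRAP libraries, against 259, 367 and 373 FPKM in the supernatant libraries. The 2 groups stood far apart, with a log2 fold change of -4.11 (SE 0.38) and an adjusted p of 0.00285 (limma). Cdr1 lost its call without the filter on low values (adjusted p = 0.0857), without the intensity trend (0.243) and in one fit of all 12 libraries (0.135, limma). The strand opposite this gene gives rise to Cdr1as, a circular RNA of neurons that binds miR-7 and is not translated as an mRNA, and since no strand setting is given in the sources used here, reads of the circle and of Cdr1 cannot be told apart. The mature miR-7a-5p (RefSeq, GRCm38.p6), with its seed of bases 2 to 8 in capitals, and a window of 240 bases of the strand opposite Cdr1 at chrX:61184462-61184701 (mm10, plus strand) are shown because this strand is made of repeated matches to that seed, in capitals.
mmu-miR-7a-5p: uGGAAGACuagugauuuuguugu
Cdr1, opposite strand: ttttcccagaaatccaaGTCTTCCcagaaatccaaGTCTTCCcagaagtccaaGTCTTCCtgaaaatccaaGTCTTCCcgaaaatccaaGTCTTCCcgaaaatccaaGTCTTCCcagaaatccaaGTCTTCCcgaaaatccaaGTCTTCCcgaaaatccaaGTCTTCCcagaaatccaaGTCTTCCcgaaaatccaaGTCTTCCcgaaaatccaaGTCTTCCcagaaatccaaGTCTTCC
The window holds 13 matches to the seed (GTCTTCC), and the whole 1554 nt of the locus hold 79 on the opposite strand and 0 on the strand of Cdr1. Among 16622 other coding genes with a transcript at least as long, 20.3% have a match on the opposite strand of their first 1554 bases, with 11 at most, and 14.1% have one on their own strand, with 4 at most. A match is a description of the sequence and does not show which strand was sequenced.

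Mgp, matrix Gla protein, a calcium-binding protein secreted by fibroblasts and smooth muscle, lies on chromosome 6 of mm10 from 136872435 to 136875823. Bound RNA gave a value of 0 FPKM in each of the 3 TRAP libraries, and unbound RNA gave 80.5, 105 and 108 FPKM in the supernatant libraries (adjusted p = 0.00802, limma). With the replicate number as a block the adjusted p was 0.0814, so that the call did not stand. It was also lost when any 1 of the supernatant libraries 1, 2 and 3 was left out (adjusted p = 0.25, 0.229 and 0.143, limma), with a pseudocount of 0.1 (0.14), without the filter (0.0857) and in one fit of all 12 libraries (0.707). At 9 a.m. Mgp had 0, 16.8 and 0 FPKM in TRAP and 243, 0 and 72.7 FPKM in the supernatant.

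**Figure D1:**
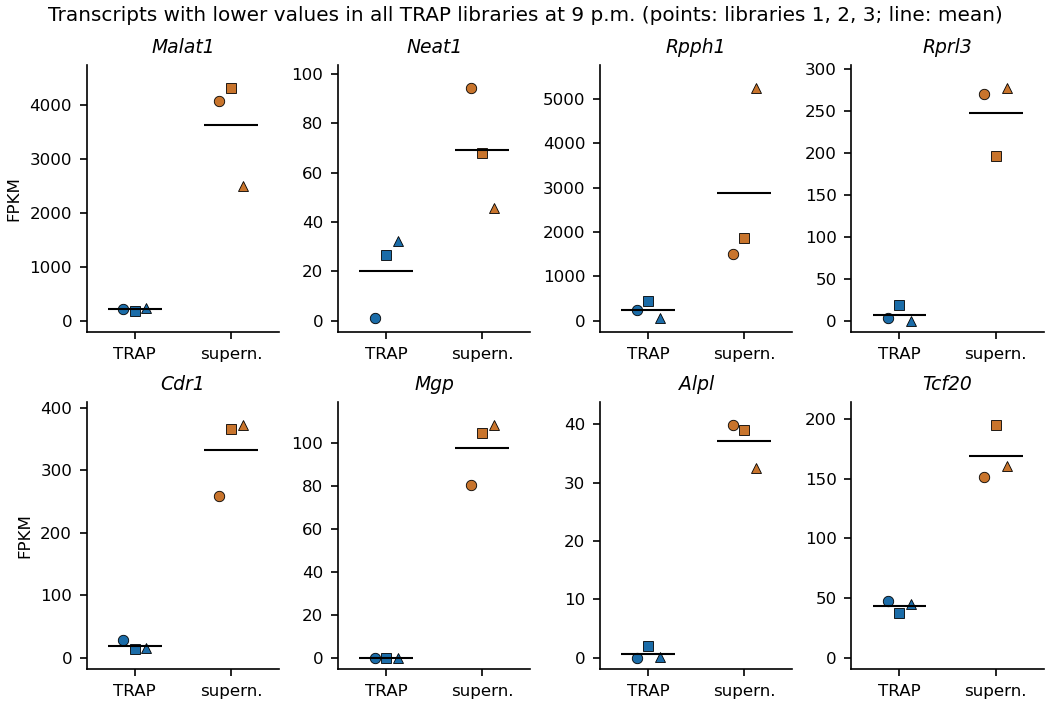
FPKM (vertical axis, linear, one scale per gene) of 8 genes in the TRAP (left, blue) and supernatant (right, orange) libraries of 9 p.m., with circles, squares and triangles for libraries 1, 2 and 3 and a line at the mean. In each gene all 3 TRAP points lie under all 3 supernatant points, as for Malat1 with at most 242 FPKM in TRAP and at least 2510 FPKM in the supernatant.

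The summed levels of stromal, macrophage and glial markers were lower in every TRAP library than in any supernatant library. For glia this held only with Pdgfra, a member of the stromal list as well. Mgp was the single marker that passed the test. In the list of fibroblasts and stroma, 0 of 13 tested members had all TRAP libraries above all supernatant libraries and 8 had all of them below (61.5% of them below, against 7.0% of all genes), and the median was -1.57 from that of all genes (-1.01 without supernatant library 2). Of 18 listed, 7 had a TRAP mean over 1 FPKM and 15 a supernatant mean over 1 FPKM, so several of the tested members passed the filter through the supernatant alone, which by itself puts them on its side. The list, with all 18 members, sums to 129, 159 and 111 FPKM in TRAP and 358, 412 and 349 FPKM in the supernatant, so no TRAP library reached the level of any supernatant library. Besides Mgp, the members with the lowest p were Alpl and Lum. Alpl, tissue-nonspecific alkaline phosphatase, had 0, 1.93 and 0.114 FPKM in the TRAP libraries, against 39.8, 39 and 32.5 FPKM in the supernatant libraries. Lum, a small leucine-rich proteoglycan of collagen matrix, had 0, 0.49 and 0 FPKM in the TRAP libraries, against 23.9, 7.34 and 9.25 FPKM in the supernatant libraries. These 2 were thus nearly absent from bound RNA, with log2 fold changes of -4.68 (SE 0.86) and -3.49 (SE 1.01), but neither passed the test (adjusted p = 0.247 and 0.809, limma). Not every member followed. Ogn, another small proteoglycan, had 47.8, 34.8 and 19.7 FPKM in TRAP and 26.3, 8.29 and 9.81 FPKM in the supernatant, which overlapped, and Fmod, fibromodulin, had 55.6, 97.5 and 60.1 FPKM in TRAP and 127, 71.6 and 98 FPKM in the supernatant, which overlapped as well. Cxcl12, a chemokine made by stromal cells and no member of the list, was among the genes of lowest p with 1.41, 2.35 and 5.09 FPKM in the TRAP libraries, against 71.3, 24.1 and 25.7 FPKM in the supernatant libraries.

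Macrophage and blood cell markers were at low levels. In the list of macrophages and immune cells, 9 of 20 members were tested, of which 2 did not overlap, and the median was -1.93 from that of all genes. Of these 9, 2 had a TRAP mean over 1 FPKM, so the side of the others is set by the filter, and the count and the median support nothing. All 20 members summed to 12, 3.24 and 13.5 FPKM in TRAP and 70.1, 109.7 and 62.3 FPKM in the supernatant. C1qa, a chain of the complement component C1q that tissue macrophages make, had 0 FPKM in every TRAP library, against 14.9, 34.7 and 5.26 FPKM in the supernatant libraries. Cd74, the invariant chain of MHC class II, had 0, 0.0999 and 0 FPKM in the TRAP libraries, against 4.37, 7.83 and 13.9 FPKM in the supernatant libraries. Both thus had next to nothing in bound RNA, and neither passed the test (adjusted p = 0.785 and 0.818, limma). Hbb-bs, an adult beta-globin of red cells, had 0.01, 0 and 0 FPKM in the TRAP libraries, against 41.8, 43.9 and 11.3 FPKM in the supernatant libraries (log2 fold change -4.84 (SE 0.98), adjusted p = 0.41, limma). The erythroid list had 2 tested members, both without a TRAP mean over 1 FPKM, and a median of -3.42. Hba-a2, an alpha-globin, was listed at 0 throughout TRAP, and gave 0.374, 62.3 and 0 FPKM in the supernatant, where a single library held nearly all of it.

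Glial, endothelial and neuronal lists were low in both fractions. Glial members summed to 32, 41.6 and 36 FPKM in TRAP and 77.9, 103 and 47.9 FPKM in the supernatant, with 3 of 10 lower in every TRAP library and a median of -0.98 from that of all genes. Pdgfra, found on fibroblasts and oligodendrocyte precursors and on both lists, had 4.53, 2.08 and 1.25 FPKM in TRAP and 20.8, 13.3 and 14.7 FPKM in the supernatant. Without Pdgfra the glial sums of the fractions overlap, so they are no evidence separate from the stromal list. Among abundant glial members, Mbp had 3.04, 13.6 and 12.8 FPKM in TRAP and 7.51, 24.8 and 12.8 FPKM in the supernatant. Aldoc had 10.4, 17.2 and 6.48 FPKM in TRAP and 12.6, 5.34 and 11.1 FPKM in the supernatant, and both overlapped. The endothelial list had 2 of 8 lower in every TRAP library and a median of -0.78 (-0.36 without TRAP library 3, -0.28 without supernatant library 2, -1.45 without supernatant library 3), with Kdr, the main VEGF receptor, at 0.0276, 3.05 and 0.985 FPKM in TRAP and 10.7, 4.29 and 4.9 FPKM in the supernatant. Egfl7, an endothelial secreted factor, went the other way with 14.9, 11.8 and 0 FPKM in TRAP and 0.281, 0 and 1.01 FPKM in the supernatant. Of 5 tested neuronal markers none separated the groups, and the median was -0.90 (-0.33 without TRAP library 3 and -0.22 without supernatant library 2). Pericyte and smooth muscle markers (6 tested, none separated) had a median of -0.38 that reached 0.01 without TRAP library 1, so that no direction can be given for this list. Liver-type genes, with 8 tested and none separated, had a median of -0.12 that ran from -1.10 without TRAP library 3 to 1.004 without supernatant library 1, so that their direction is not given either.

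**Figure D2:**
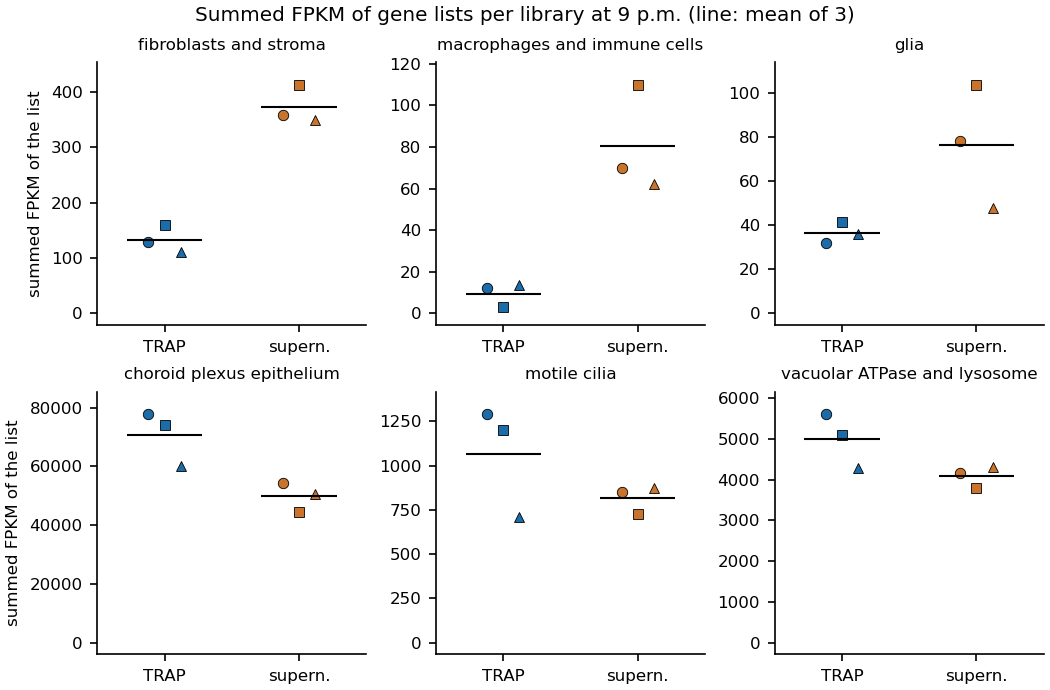
Summed FPKM of 6 gene lists (vertical axis, linear from 0, one scale per list) in the TRAP (left, blue) and supernatant (right, orange) libraries of 9 p.m., with circles, squares and triangles for libraries 1, 2 and 3 and a line at the mean. Stromal, macrophage and glial sums are lower in every TRAP library, the glial ones only with Pdgfra, a member of the stromal list as well. Epithelial sums are higher in every TRAP library, and the sums of motile cilia and of the vacuolar ATPase overlap.

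Genes of the tagged epithelium lay near or above the middle of all genes. In the list of ChP epithelium, 6 of 31 tested members had all TRAP libraries above all supernatant libraries and 2 had all of them below (19.4% above, against 4.9% of all genes), 22 of 31 lay above the median of all genes, and the list median was 0.24 from it. This median was 0.15 after rescaling all genes to equal sums and -0.10 under quantile normalization, the lowest of the alternatives, so its direction depends on the scaling. Ttr, transthyretin, the carrier of thyroid hormone and the most abundant secreted product of the ChP, had 51510, 48950 and 32930 FPKM in the TRAP libraries, against 30320, 23430 and 26440 FPKM in the supernatant libraries. Its share of the summed FPKM of coding genes was 14.3%, 12.9% and 10.8% in TRAP and 9.78%, 8.41% and 8.44% in the supernatant (exact p = 0.1, the smallest possible). The log2 fold change was 0.71 (SE 0.45) with an adjusted p of 0.818 (limma), and it turned to -0.29 under quantile normalization. Enpp2, autotaxin, a secreted lysophospholipase, had 17830, 16450 and 18530 FPKM in TRAP and 15840, 14460 and 16820 FPKM in the supernatant. Kcnj13, an inward rectifier potassium channel of the apical membrane, had 975, 893 and 1011 FPKM in TRAP and 925, 646 and 756 FPKM in the supernatant. The values of Enpp2 and Kcnj13 overlapped between the fractions.

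The epithelial members with the lowest p were Krt18, Steap1 and Calml4. Krt18, a keratin of simple epithelia, had 276, 428 and 369 FPKM in TRAP and 241, 116 and 197 FPKM in the supernatant. Steap1, a membrane protein of the metalloreductase family, had 139.5, 34.1 and 64.7 FPKM in TRAP and 13.3, 33.7 and 28.8 FPKM in the supernatant. Calml4, a calmodulin-like protein of apical microvilli in intestine, had 389.9, 590.3 and 475 FPKM in TRAP and 289.5, 105 and 379 FPKM in the supernatant. In all of them the TRAP libraries stood above the supernatant, by log2 fold changes of 0.99, 1.48 and 1.08, and none passed the test. Ezr, ezrin, which ties the microvillar membrane to actin, was no member of the list but among the genes of lowest p, with 723, 923 and 789.5 FPKM in the TRAP libraries, against 416, 295 and 397 FPKM in the supernatant libraries (log2 fold change 1.14 (SE 0.27), adjusted p = 0.656, limma). Genes of motile cilia were split. Of 24 tested, 2 (8.33%, against 4.9% of all genes) lay higher and 1 (4.17%, against 7.0%) lower in every TRAP library. Their median was -0.03 from that of all genes. Rsph1 and Rsph9 build the radial spokes of the axoneme. Rsph1 had 454, 285 and 189.9 FPKM in TRAP and 238, 176 and 223 FPKM in the supernatant, with overlap, and Rsph9 had 121, 96.5 and 96.6 FPKM in TRAP and 79.5, 44.8 and 63 FPKM in the supernatant, without overlap.

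The lists of transport and secretion share members with the epithelial list, Kcnj13 and Ttr among them, and are no separate evidence. In ion and water transport, 2 of 22 tested members (9.09%, against 4.9% of all genes) lay higher and 0 lower in every TRAP library, with a median of 0.16 that ran from -0.13 to 0.39 over the alternatives. Atp1b3, a beta subunit of the sodium-potassium pump, had 158, 127 and 124 FPKM in TRAP and 67.5, 81.8 and 62.1 FPKM in the supernatant. Car2, cytosolic carbonic anhydrase, had 327, 399 and 274 FPKM in TRAP and 190, 177 and 225 FPKM in the supernatant. Both stood apart between the fractions, whereas Clic6, an intracellular chloride channel protein of the ChP, had 678, 653 and 579 FPKM in TRAP and 708, 669.9 and 635 FPKM in the supernatant and overlapped. Of 26 tested secreted proteins, 5 (19.2%, against 4.9% of all genes) lay higher and 2 (7.69%, against 7.0%) lower in every TRAP library. Their median was 0.13 and ran from -0.22 to 0.33 over the alternatives, so neither list has a set direction. Igf2, a growth factor made by the ChP and its stroma, had 606, 683 and 1006 FPKM in the TRAP libraries, against 1587, 1449 and 1340 FPKM in the supernatant libraries, a log2 fold change of -0.96 (SE 0.28). B2m, the light chain of MHC class I, had 212, 155 and 49.2 FPKM in TRAP and 43.1, 4.8 and 40.5 FPKM in the supernatant. Igf2 and B2m thus stood on opposite sides, and neither passed the test (adjusted p = 0.818 and 0.818, limma).

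Nuclear genes of the respiratory chain had the highest list median in bound RNA. Of 86 listed subunits and assembly members 79 were tested, 14 (17.7%, against 4.9% of all genes) lay higher and 0 lower in every TRAP library, 65 lay above the median of all genes, and the list median was 0.88 from it. Over the alternatives this median ran from 0.61 to 1.17, each time above that of all genes. The list summed to 26390, 30720 and 13250 FPKM in TRAP and 12700, 11970 and 15610 FPKM in the supernatant, which overlapped, since TRAP library 3 lay under supernatant library 3. Ndufb5, an accessory subunit of complex I, lies on chromosome 3 of mm10 from 32736990 to 32751566 and had 128, 139.6 and 94.6 FPKM in the TRAP libraries, against 40.2, 35.4 and 24.9 FPKM in the supernatant libraries, a log2 fold change of 1.83 (SE 0.37) with an adjusted p of 0.396 (limma). Ndufs6, a zinc-binding subunit of complex I, had 319.7, 288 and 146 FPKM in TRAP and 79.9, 119.9 and 67.4 FPKM in the supernatant. Atp5j, coupling factor 6 of ATP synthase, had 1752, 1724 and 744 FPKM in TRAP and 416, 624 and 649.7 FPKM in the supernatant. Ndufc2, another accessory subunit of complex I, had 342, 87 and 162 FPKM in TRAP and 51.4, 27.4 and 65.9 FPKM in the supernatant. In these 3 genes the TRAP library 3 or 2 came nearest to the supernatant, and the log2 fold changes were 1.45, 1.24 and 1.88. Among the most abundant subunits, Atp5k of ATP synthase had 2188, 2981 and 1167 FPKM in TRAP and 948, 1194 and 991 FPKM in the supernatant and Cox6c of cytochrome c oxidase had 2428, 2161 and 542 FPKM in TRAP and 771, 614 and 1282 FPKM in the supernatant. Atp5k and Cox6c overlapped between the fractions, Cox6c because its TRAP library 3 lay lowest of all 6. None of the 79 passed the test. Slc25a3, the carrier that brings phosphate into mitochondria for ATP synthesis, is no member but was among the genes of lowest p, with 394, 450.2 and 377 FPKM in the TRAP libraries, against 168, 126 and 223 FPKM in the supernatant libraries (log2 fold change 1.27 (SE 0.30), adjusted p = 0.656, limma). Genes that mitochondria encode themselves are not analysed here.

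Mitochondrial ribosomal proteins and the vacuolar ATPase had list medians above that of all genes. Of 76 tested mitochondrial ribosomal proteins 8 (10.5%, against 4.9% of all genes) lay higher and 1 (1.32%, against 7.0%) lower in every TRAP library. Their median was 0.59 (0.34 without supernatant library 2 and 0.92 without supernatant library 3, the lowest and highest of the alternatives), while the spread between libraries was 1.07, wider than the median. Mrpl32, a protein of the large subunit, had 196, 53.2 and 27.7 FPKM in the TRAP libraries, against 0, 0 and 9 FPKM in the supernatant libraries. Mrps9, a protein of the small subunit, had 39.8, 19.7 and 12 FPKM in TRAP and 0.111, 0.108 and 3.23 FPKM in the supernatant. Both were close to 0 in parts of the supernatant, and abundant members such as Mrps6, with 59.5, 169.5 and 133 FPKM in TRAP and 42.8, 70.9 and 121 FPKM in the supernatant, overlapped. The vacuolar ATPase acidifies lysosomes and pumps protons across membranes of the epithelium. Of 31 tested members of the pump and of lysosomal enzymes 5 (16.1%, against 4.9% of all genes) lay higher and 1 (3.23%, against 7.0%) lower in every TRAP library. Of the 31, 26 lay above the median of all genes, and the list median was 0.52 (0.26 to 0.57 over the alternatives). Atp6v1a, the catalytic A subunit, had 146, 198 and 168 FPKM in the TRAP libraries, against 61.7, 60.7 and 104 FPKM in the supernatant libraries, a log2 fold change of 1.20 (SE 0.33). Atp6v1e1, a stalk subunit, had 280.4, 244 and 226 FPKM in TRAP and 129, 147 and 201 FPKM in the supernatant, and Ctsd, the protease cathepsin D, had 1635, 1373 and 1404 FPKM in TRAP and 1196, 1112 and 946 FPKM in the supernatant. Atp6v0a2, a membrane subunit found on Golgi and endosomes, ran the other way with 31.7, 22.3 and 16.5 FPKM in TRAP and 43.1, 43.2 and 37.3 FPKM in the supernatant.

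Sqstm1 had the lowest p of all genes with higher values in TRAP. It encodes p62, the receptor that carries ubiquitinated cargo into autophagosomes, lies on chromosome 11 of mm10 from 50199366 to 50210827, and had 883, 869 and 624 FPKM in the TRAP libraries, against 303, 229.8 and 227 FPKM in the supernatant libraries. Its lowest TRAP library was above the highest supernatant library by more than the spread within either fraction, and the log2 fold change was 1.64 (SE 0.28) with an adjusted p of 0.22 (limma). In one fit of all 12 libraries the adjusted p was 0.0499, the one alternative that called it. Lamtor2, a subunit of the Ragulator complex that anchors mTORC1 at lysosomes, had 44.9, 111 and 202 FPKM in the TRAP libraries, against 23.5, 14.6 and 5.86 FPKM in the supernatant libraries, with an adjusted p of 0.601 (limma). Several further genes of lowest p were near 0 in the supernatant. Zmat5, a protein of the minor spliceosome, had 30.1, 28.7 and 31 FPKM in TRAP and 0, 0 and 0.131 FPKM in the supernatant. Polb, DNA polymerase beta of base excision repair, had 18.8, 30.2 and 25.2 FPKM in TRAP and 0, 0 and 2.63 FPKM in the supernatant. With supernatant means of 0.0438 and 0.877 FPKM, Zmat5 and Polb passed the filter through TRAP alone, which by itself puts them on that side. Cib1, a calcium- and integrin-binding protein, had 84, 63.1 and 49.5 FPKM in TRAP and 0.593, 0.384 and 18.1 FPKM in the supernatant. In all of these the supernatant held at most 18.1 FPKM, and Cib1 was called without supernatant library 3 (adjusted p = 0.0498, limma).

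**Figure D3:**
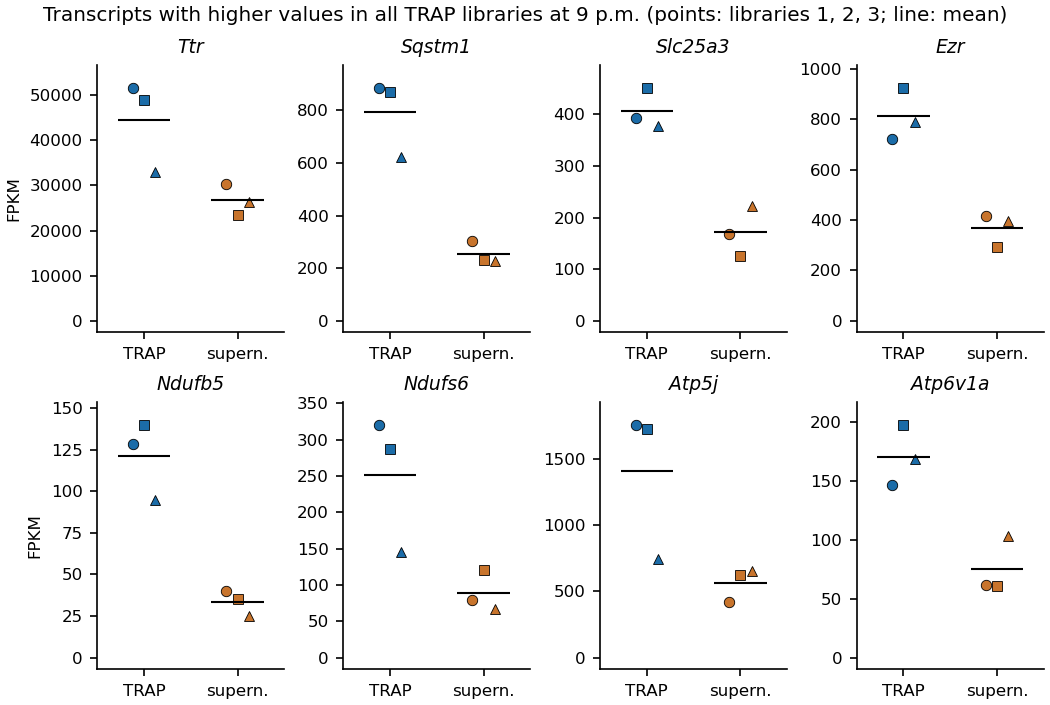
FPKM (vertical axis, linear, one scale per gene) of 8 genes in the TRAP (left, blue) and supernatant (right, orange) libraries of 9 p.m., with circles, squares and triangles for libraries 1, 2 and 3 and a line at the mean. In each gene all 3 TRAP points lie above all 3 supernatant points, as for Sqstm1 with at least 624 FPKM in TRAP and at most 303 FPKM in the supernatant, though none passed the test.

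The translation machinery was split. Of 59 tested cytosolic ribosomal proteins 3 (5.08%, against 4.9% of all genes) lay higher and 0 lower in every TRAP library. The median was 0.31 from that of all genes, with a range of 0.04 to 0.94 over the alternatives and a spread between libraries (1.34) wider than that. Rpl41 had 477, 584 and 178 FPKM in TRAP and 144, 152 and 279 FPKM in the supernatant, Rpl13a had 326, 369 and 113 FPKM in TRAP and 283, 185 and 322 FPKM in the supernatant, and both overlapped. Rpl36a, by contrast, had 17.2, 28.2 and 39 FPKM in the TRAP libraries, against 0, 0 and 1.35 FPKM in the supernatant libraries. Its supernatant mean was 0.449 FPKM, so it passed the filter through TRAP alone, which by itself puts it on that side. Reads of these genes and of their many pseudogenes are uncertain. Among 61 initiation and elongation factors 4 (6.56%, against 4.9% of all genes) lay higher and 2 (3.28%, against 7.0%) lower, with a median of -0.03. Eef2, which moves the ribosome along the message, had 293, 363 and 393 FPKM in TRAP and 281, 199 and 236 FPKM in the supernatant, and Eef1a1, which brings tRNA to it, had 397, 401 and 199.7 FPKM in TRAP and 318, 267 and 472 FPKM in the supernatant. Of this pair only Eef2 stood apart. In the 31 tested tRNA synthetases 3 (9.68%) lay higher and 1 (3.23%) lower, with a median of 0.39 that was -0.002 without supernatant library 2. Lars2, the mitochondrial leucine enzyme, had 553, 352 and 359 FPKM in TRAP and 142, 275 and 199 FPKM in the supernatant. In the 45 tested proteasome genes 3 (6.67%) lay higher and 0 lower, with a median of 0.04.

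Chaperones also held members of both kinds, whereas the histone genes had 1 member higher and 0 lower in every TRAP library. Of 22 tested chaperones 5 (22.7%, against 4.9% of all genes) lay higher and 2 (9.09%, against 7.0%) lower in every TRAP library. Hspa8, the constitutive Hsc70, had 266, 240 and 175 FPKM in TRAP and 112, 117 and 135 FPKM in the supernatant. Hspe1, the co-chaperonin of mitochondria, had 149.5, 68.2 and 112 FPKM in TRAP and 46.1, 0.232 and 17.7 FPKM in the supernatant. Hsp90aa1, the inducible Hsp90, had 149.8, 186 and 102 FPKM in TRAP and 218, 276 and 247 FPKM in the supernatant, lower in every TRAP library, whereas its constitutive partner Hsp90ab1 had 985, 1015 and 772 FPKM in TRAP and 1009, 736 and 1129 FPKM in the supernatant and overlapped. Of the replication-dependent histone genes 20 were tested, 1 of which did not overlap (5.0% higher, against 4.9% of all genes). This was Hist1h1d, a linker histone, with 52.1, 89.3 and 83.8 FPKM in the TRAP libraries, against 8.01, 13.5 and 12.6 FPKM in the supernatant libraries (log2 fold change 2.61 (SE 0.47), adjusted p = 0.237, limma). Most histone mRNAs end in a stem-loop and carry no poly(A) tail.

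Lists of signalling, clock and membrane genes lay at or under the middle in the main fit. Of 18 tested core clock genes 0 lay higher and 2 lower in every TRAP library, 14 lay under the median of all genes, and the list median was -0.28. Nr1d2, the repressor REV-ERB beta, had 11.3, 29.7 and 22.8 FPKM in TRAP and 32.6, 68.8 and 38.5 FPKM in the supernatant. Tef, an activator that binds D-box elements, had 44.5, 36.2 and 43.8 FPKM in TRAP and 68.8, 85.2 and 49.6 FPKM in the supernatant. The most abundant member, Dbp, likewise a D-box activator, had 138, 30.7 and 44.7 FPKM in TRAP and 88.6, 24.9 and 22.9 FPKM in the supernatant, with groups that overlapped. Of 26 genes of mTOR, insulin and AMPK signalling 3 lay lower and 0 higher, with a median of -0.36. Rptor, the scaffold of mTORC1, had 5.21, 6.49 and 6.94 FPKM in TRAP and 13.3, 16.6 and 11 FPKM in the supernatant, and Stk11, the kinase LKB1 that activates AMPK, had 43.5, 44.1 and 28.4 FPKM in TRAP and 55.4, 64.1 and 58.2 FPKM in the supernatant. Both shares (11.1% of clock genes and 11.5% of signalling genes lower) stood beside 7.0% of all genes. In ER protein entry and folding (41 tested, 1 higher and 3 lower), tight and adherens junctions (17, 0 and 1), basement membrane (16, 2 and 1), iron handling (14, 1 and 2), the integrated stress response (9, 0 and 1), transcripts with detained introns (24, 0 and 3), small nucleolar RNA host genes (10, 0 and 0) and immediate early genes (13, 0 and 0), the medians lay between -0.42 and 0.09. Shares higher reached 12.5% (basement membrane) and shares lower 14.3% (iron handling), beside 4.9% and 7.0% of all genes. Over the alternatives the medians ran from -1.04 to 0.97 for immediate early genes, -0.97 to 0.80 for host genes and -1.18 to 0.06 for the stress response. Of these lists only iron handling kept its sign (-0.26 to -0.006), so no direction can be given for the others.

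Single members of these lists stood out by level. Calr, the lectin chaperone calreticulin, had 1408, 1012 and 984 FPKM in TRAP and 1635, 1030 and 948 FPKM in the supernatant, with overlap. The ferritin chains store iron, and Ftl1, the light chain, had 67.4, 59.4 and 46.9 FPKM in the TRAP libraries, against 132, 182 and 114 FPKM in the supernatant libraries, lower in every TRAP library (log2 fold change -1.27 (SE 0.34), adjusted p = 0.785, limma). Fth1, the heavy chain, had 303, 398 and 368 FPKM in the TRAP libraries, against 650.2, 374 and 693 FPKM in the supernatant libraries, with groups that overlapped. Cldn2, a claudin that forms cation pores, had 236, 158 and 166 FPKM in TRAP and 161, 147 and 86.1 FPKM in the supernatant, which overlapped.

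**Figure D4:**
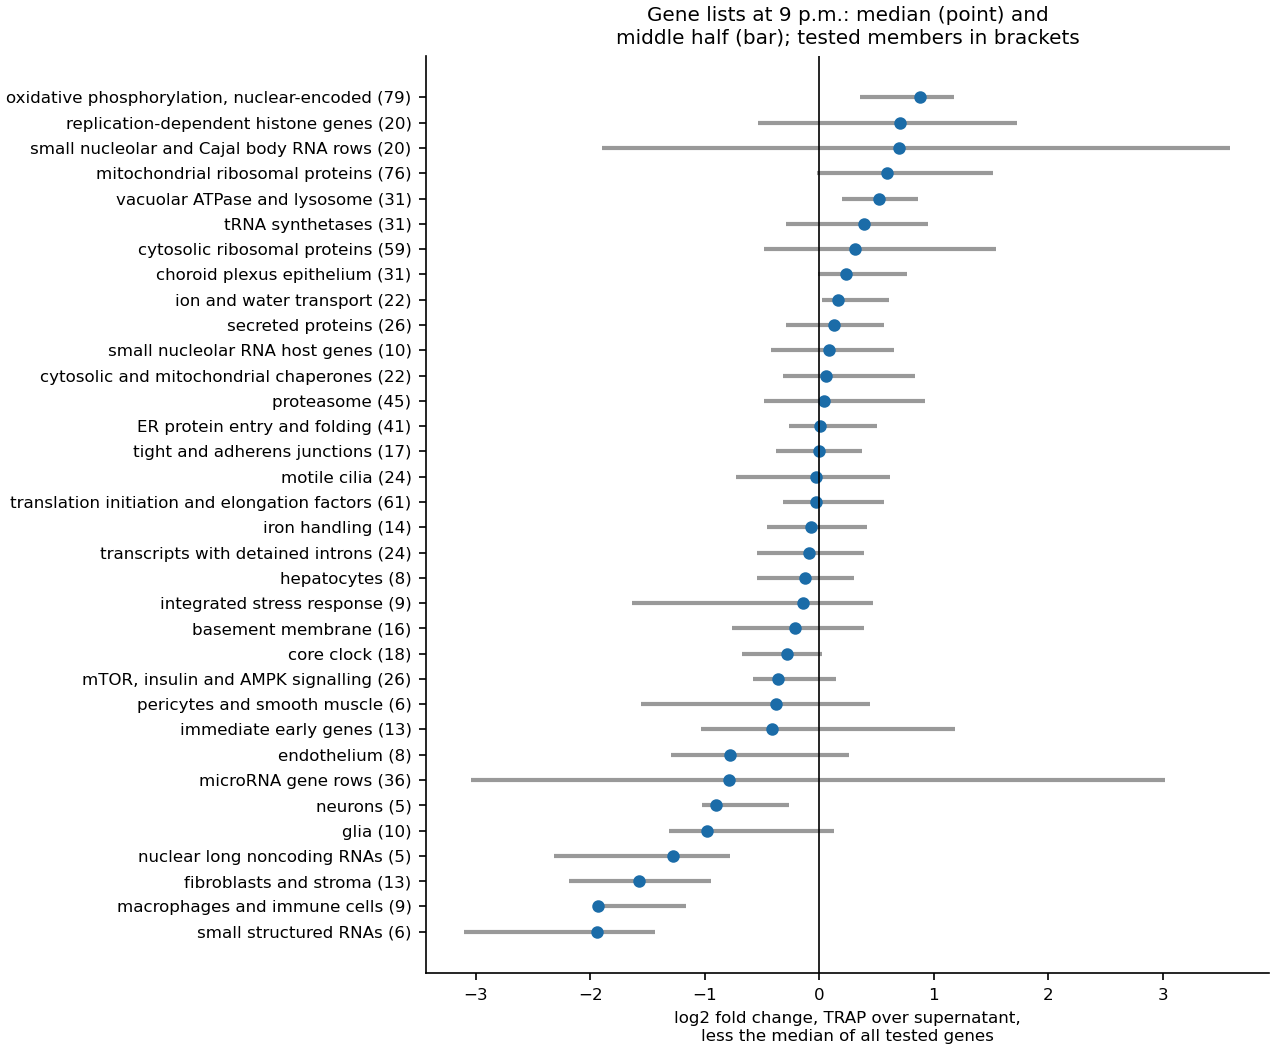
Gene lists at 9 p.m., with at least 5 tested members, ordered by the median log2 fold change of these members, TRAP over supernatant, less the median of all tested genes (horizontal axis, points). Bars span the lower to the upper quartile of members, and the number of tested members is in brackets. For the bars the median of all tested genes (-0.07) was subtracted once more than for the points. All bars thus lie slightly too far to the right, and a bar end next to 0 can fall on the wrong side of it. Respiratory chain genes lie at the top with a median of 0.88, and small structured RNAs, macrophage and stromal markers at the bottom with -1.94, -1.93 and -1.57. In these bottom lists 3 of 6, 2 of 9 and 7 of 13 tested members had a TRAP mean over 1 FPKM. The others passed the filter through the supernatant alone, which by itself puts them on its side.

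Long transcripts lay on the unbound side and short ones on the bound side at 9 p.m. This relation was looked for after the list values had been seen. Coding genes were put in classes by their longest annotated transcript (GENCODE M21), which 10238 tested genes had. The median log2 fold change was 0.65 for 491 genes of up to 1000 nt, 0.28 for 1891 of 1000 to 2000 nt, 0.05 for 2186 of 2000 to 3000 nt, -0.07 for 3315 of 3000 to 5000 nt and -0.35 for 2355 over 5000 nt. Genes lower in every TRAP library made up 1.63% of the shortest and 15.8% of the longest class, against 7.12% of all tested coding genes, and genes higher in every TRAP library 8.15% and 2.59%, against 4.99%. Among coding genes with a mean above 20 FPKM, the median of the shortest class less that of the longest (log2 scale) was 1.46, 1.58 and 0.56 in TRAP libraries and 0.29, 0.14 and 0.52 in the supernatant. TRAP library 3 and supernatant library 3 were thus alike in this measure, and over all tested coding genes the same quantity was 0.23, 1.38 and 0.02 in TRAP and -0.86, -2.94 and 0.33 in the supernatant, which overlap. The gap between the medians of the shortest and the longest class ran from 0.57 to 1.44 over the alternatives. Genes are not independent replicates, so no p is given.

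Several lists described above are made of short or of long transcripts. Respiratory chain genes have a median longest transcript of 913 nt, mitochondrial ribosomal proteins 1327 nt, cytosolic ribosomal proteins 946 nt, and genes of mTOR, insulin and AMPK signalling 6025 nt. Set against the median of coding genes of their own length class, the list median was 0.30 for the respiratory chain, 0.17 for mitochondrial ribosomal proteins and -0.02 for cytosolic ribosomal proteins. It was 0.39 for the vacuolar ATPase and lysosome and -0.33 for mTOR, insulin and AMPK signalling. The part of transcript length in the values of single lists was not tested. Among genes of lowest p, Tcf20, a transcriptional coregulator with a transcript of 7417 nt, had 47.8, 37.2 and 45 FPKM in the TRAP libraries, against 152, 195 and 160.4 FPKM in the supernatant libraries. Golga4, a golgin that tethers vesicles to the trans-Golgi (7583 nt), had 34.7, 49.1 and 63.6 FPKM in TRAP and 144, 168 and 132 FPKM in the supernatant. Peak1, a pseudokinase of the cytoskeleton (7524 nt), had 0 FPKM throughout TRAP, against 14, 19.5 and 19.4 FPKM in the supernatant. Peak1 thus passed the filter through the supernatant alone, which by itself puts it on that side. Fam81a, a coiled-coil protein of 3703 nt, had 117, 123 and 123 FPKM in TRAP and 501, 283 and 499.6 FPKM in the supernatant. These 4 did not overlap between fractions, and none passed the test (adjusted p from 0.211 to 0.63, limma).

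**Figure D5:**
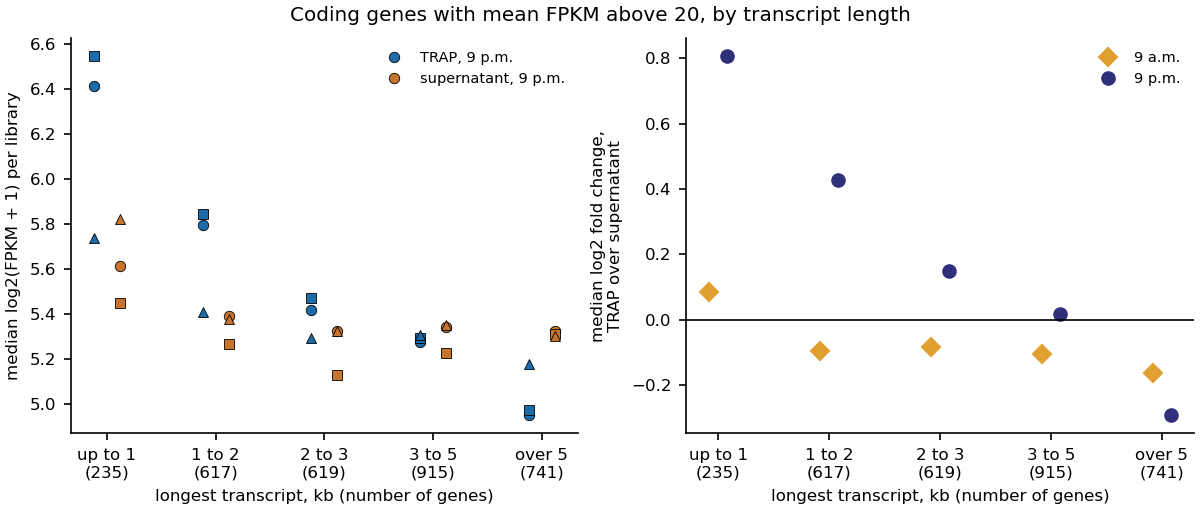
Left, median log2(FPKM + 1) per library (vertical axis) of coding genes with a mean above 20 FPKM, by class of longest transcript in kb (horizontal axis, number of genes in brackets), with TRAP in blue left of the supernatant in orange and circles, squares and triangles for libraries 1, 2 and 3. Right, median log2 fold change of the same classes at 9 a.m. (diamonds) and 9 p.m. (circles), which at 9 p.m. is 0.81 in the shortest and -0.29 in the longest class and at 9 a.m. 0.09 and -0.16.

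MicroRNA gene rows held the largest FPKM values of the table. A microRNA gene is short, so a few reads give a large FPKM, and these libraries were not made to catch mature microRNAs, so the rows count fragments that map to the gene. The mature sequences of Mir703, Mir6236 and Mir546 are shown (RefSeq, GRCm38.p6), with the seed of bases 2 to 8 in capitals, because these rows separated the fractions or the times, and no seed is shared among these 3.
mmu-miR-703: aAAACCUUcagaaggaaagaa
mmu-miR-6236: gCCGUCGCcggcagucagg
mmu-miR-546: aUGGUGGCacggaguc
Mir6236 had 402200, 282300 and 306600 FPKM in the TRAP libraries, against 123800, 218200 and 84780 FPKM in the supernatant libraries, higher in every TRAP library. Mir703 had 209.5, 1364 and 4845 FPKM in the TRAP libraries, against 0, 0 and 82.1 FPKM in the supernatant libraries, likewise without overlap, and Mir6240 had 664, 467 and 1574 FPKM in TRAP and 364, 318 and 246 FPKM in the supernatant. With the replicate number as a block, Mir703 was the single gene called higher in TRAP (adjusted p = 0.0263, limma), while without it the adjusted p was 0.394. Of 36 tested microRNA rows 3 (8.33%, against 4.9% of all genes) lay higher and 0 lower in every TRAP library. The list median of -0.78 ran from -1.89 to 2.28 over the alternatives. Mir5114 shows the spread, with 195600, 10860 and 295300 FPKM in TRAP and 0.281, 351500 and 110500 FPKM in the supernatant. Small nucleolar RNA rows were just as uneven. Of 20 tested none separated the groups, and Snord22, a box C/D guide RNA, had 9925, 2708 and 0 FPKM in TRAP and 0, 0 and 639 FPKM in the supernatant.

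Whether the difference between fractions at 9 p.m. was another one than at 9 a.m. was asked by an interaction term (fraction by time) fitted to the 12 libraries together. Of 11156 genes tested, 1 was called (0.00896%), Mir546, and 429 had a p under 0.05 before adjustment. Mir546 was listed at or next to 0 (7.03e-148 FPKM at most) in all 3 TRAP libraries of 9 a.m., against 572, 3026 and 2945 FPKM in the supernatant of 9 a.m., and at 0, 259.6 and 49.2 FPKM in the TRAP libraries of 9 p.m., against 0 or next to it (4.58e-24 FPKM at most) in all 3 supernatant libraries of 9 p.m. (adjusted p = 0.0236, limma). The call was lost under 12 of the 16 alternatives that could test it. With the replicate number as a block 2 genes were called, Mir546 and Mrpl52, a protein of the large mitochondrial subunit (adjusted p = 0.0451 for both, limma). For the genes called at 9 p.m., the interaction was -0.41 for Malat1 (adjusted p = 0.988), 0.12 for Cdr1 (adjusted p = 0.999) and -3.29 for Mgp (adjusted p = 0.988, limma).

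Side by side, the fractions of 9 a.m. gave these values for the members described above. Malat1 had 305, 270.5 and 311 FPKM in TRAP and 4035, 3513 and 3659 FPKM in the supernatant at 9 a.m., and Cdr1 had 12.3, 4.43 and 91.6 FPKM in TRAP and 158, 524 and 539.5 FPKM in the supernatant. Sqstm1 had 505, 544 and 449 FPKM in TRAP and 302, 255 and 259 FPKM in the supernatant at 9 a.m., with groups that did not overlap. Ndufb5 had 8.34, 46 and 0 FPKM in TRAP and 170.5, 63.2 and 12.4 FPKM in the supernatant, with groups that overlapped. Hspe1 had 4.07, 5.39 and 1.16 FPKM in TRAP and 65.4, 32.9 and 41.2 FPKM in the supernatant at 9 a.m., where it was lower in every TRAP library, and its interaction had an unadjusted p of 2.56e-04 and an adjusted p of 0.952 (limma). The list medians less that of all genes at 9 a.m. were 0.36 for the respiratory chain, 0.15 for mitochondrial ribosomal proteins, 0.32 for the vacuolar ATPase and lysosome, -1.67 for stroma and -0.20 for macrophages. The macrophage median rests on 5 tested members at 9 a.m. and on 9 at 9 p.m., so the times cannot be compared by it. All 20 macrophage members summed to 1.13, 17 and 4.36 FPKM in TRAP and 139, 34.3 and 23.2 FPKM in the supernatant at 9 a.m., again lower in every TRAP library. The length classes had medians of 0.01 for up to 1000 nt and -0.23 for over 5000 nt at 9 a.m. The difference of these list and class medians between the times was not tested.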

How the data were processed

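RNA of the ChP was measured in 12 libraries, 3 per fraction and time, prepared with a SMARTer Pico kit after ribodepletion. The authors sequenced 50 nt from one end, aligned to mm10 (STAR 2.4.0 per the submitters' processing notes, which also name Cufflinks and Cuffdiff) and deposited FPKM per gene, a read count relative to gene length and library size. Annotation, Cufflinks version and strand setting: not given in the sources used here. Depth is unknown, so no counting interval is given. Groups and replicate numbers came from the labels. Where only pools and numbers separate samples, p-values measure the spread between these libraries, which may be technical.

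Of 24354 rows, 27 names turned into dates were left out. Names of 23289 genes (95.7%) matched GENCODE M21 (GRCm38), which gave positions, biotypes and transcript lengths. Genes whose mean FPKM exceeded 1 were tested on log2(FPKM + 1) by limma 3.58.1 (R 4.3.3), empirical Bayes with an intensity trend, and p-values were adjusted by Benjamini-Hochberg over all genes tested. Values with 1 number per library were tested by exact permutation, two-sided (Python 3.11.15). The study's own fraction test used read counts with DESeq2, which FPKM does not allow, and its thresholds were kept. The fit was tested on simulated data.

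The labels pair TRAP and supernatant libraries by number. Such pairs deviated from their group means with correlations of -0.01, -0.07 and -0.07, the methods name no pairing, and the main fit had no block.

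Genes are named if called, if among the 12 of lowest p in each direction (no overlap between the groups, mean of at least 10 FPKM in the higher group, no microRNA or small nucleolar RNA rows), if among the 3 most abundant members of a list or up to 3 members of lowest p without overlap, or as the tagged and the driver gene. Mir546 and Mrpl52 came from the interaction. The members and lists were chosen with earlier results of these data known. Transcript length was added after the data had been seen. Alternatives covered the block, pseudocount, filter, scaling, trend, robust variance, one fit of all libraries and leaving out each library. Sequences came from RefSeq (microRNAs) and GENCODE M21 transcripts. Plots were drawn with matplotlib 3.10.9.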

Additional observations from a re-analysis of the deposited data

Results flagged for a closer look

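Mir546 had a difference between fractions at 9 p.m. that differed from that at 9 a.m. The interaction was 15.31 on the log2 scale (adjusted p = 0.0236, limma), with TRAP at or next to 0 FPKM in all 3 libraries of 9 a.m. and the supernatant at or next to 0 FPKM in all 3 libraries of 9 p.m. At 9 p.m. the gene had signal in 2 of 3 TRAP libraries, 259.6 and 49.2 FPKM. How many reads gave these values is unknown, and the call was lost under 12 of the 16 alternatives that could test it.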

How the results depend on the processing

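Genes called higher in TRAP numbered 0, but 1 with the replicate block and 1 in one fit of all 12 libraries, and 0 to 5 with one library left out (5 without supernatant library 3, 1 without TRAP library 3). Genes called lower numbered 3, but 0 without the filter, 5 under quantile normalization, 1 without the trend and 1 in one fit of all libraries, and 2 to 4 with one library left out. The block, with the pairing given by the labels, also ended the call of Mgp and changed no other call of the named genes than those given with the results. With one library left out, which makes separation easier, genes higher in every TRAP library numbered 747 to 1263 and genes lower in every TRAP library 1075 to 1548. The split of higher to lower genes without overlap, 535 to 765, was 340 to 1022 with coding genes rescaled, 134 to 1234 with all genes rescaled and 626 to 703 under quantile normalization, while the median of all genes was -0.23, -0.52 and -0.05. The interaction (1 call) gave 2 calls with the block and 0 with a pseudocount of 0.1, with coding genes rescaled and without the trend, and 0 to 1 with one library left out. Ttr reversed under quantile normalization (-0.29). Of 554 list medians under alternatives, 528 moved by less than the spread between libraries and 26 by more. What caused these changes was not tested. Unknown depth limits the reading of zeros and low values.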
